A study of Mus musculus with 6 samples.

Results

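The genes described here are Clca3a1, Clca3a2, Clca1 and Clca2, members of the mouse family of chloride channel accessory genes. They were found by looking up the RefSeq accession of each array probe, which gave 4 genes with 1 probe each, out of 20660 genes named on the array's 55681 probes. The 4 genes were chosen with earlier results of these data known, and Clca3a1 and Clca3a2 in particular because they stood among the largest heart against tail differences. Their heart against tail difference is therefore given as a description, without a test. The family has 8 genes in the reference gene table, and 3 of the other members (Clca3b, Clca4a and Clca4b) also had a probe.

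The cultures were fibroblasts from the heart and, for comparison, from the skinned tail of male C57/Bl6-J mice, 8 weeks old in the sample labels and 8 to 10 weeks in the protocol. Tissue was minced, digested with trypsin or collagenase and plated for 5 days without any sorting step in the protocol, so the cultures can hold other cell types. RNA from 3 heart and 3 tail cultures, each pooled from 2 animals, was labelled with Cy3 and hybridised to 1 Agilent array per culture. The labels do not say whether a mouse gave cells to both tissues. No genotype, transgene or drug distinguishes the groups. In RNA from whole cultures, fewer cells of a type and less RNA per cell cannot be told apart.

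CLCA proteins were named for calcium-activated chloride currents seen when they were expressed in cells. They are now known as proteins that are processed at the cell surface or secreted, cut themselves with a metalloprotease domain and carry a von Willebrand factor A domain. They are not thought to form a channel pore, and human CLCA1 holds the calcium-activated chloride channel ANO1 at the cell surface. Mouse Clca1, formerly gob-5, is a mucus protein of goblet cells. Human CLCA2 is known from squamous epithelia. The human counterpart of the mouse Clca3 genes is a pseudogene, and mouse Clca3a1 has been described on lymphatic endothelium.

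Mouse symbols in this family have been reassigned, so probes were matched by accession and not by name. The accession NM_030601 is Clca3a2 in the current table, but the authors' deposited table gives it the older symbol Clca2. The gene now called Clca2 is another one (NM_178697, formerly Clca5), and Clca1 (NM_017474) was formerly Clca3. Clca3a1 has the accession NM_009899.

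The 8 genes lie in 1 stretch of chromosome 3, with lncRNA genes and pseudogenes but no protein-coding gene of another family between them, in the order Clca3a1, Clca3a2, Clca3b, Clca4c-ps, Clca4b, Clca4a, Clca1 and Clca2. The promoter window of Clca3a1 is shown, since the results turn on this gene. It holds 250 bases before and 50 bases after the gene's start, from RefSeq on GRCm38.p6, read 5′ to 3′ on the minus strand, at chr3:144760928-144761227. The capitals mark a match to the E-box CAGCTG.
Clca3a1: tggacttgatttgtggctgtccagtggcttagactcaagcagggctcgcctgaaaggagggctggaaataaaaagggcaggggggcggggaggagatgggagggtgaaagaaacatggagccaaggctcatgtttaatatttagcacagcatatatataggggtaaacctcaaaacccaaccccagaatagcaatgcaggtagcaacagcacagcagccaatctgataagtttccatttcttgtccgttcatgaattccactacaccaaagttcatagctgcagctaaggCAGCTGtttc

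The E-box CAGCTG, its own reverse complement, was found 1 time in this window, and 16.3% of all promoter windows of the same length hold it. The GATA factor motif AGATAA and the TATA box TATAAA, searched on both strands, were found 0 times, and 11.2% and 13.6% of all windows hold them. Only these exact words were searched, so other forms of the GATA motif or the TATA box were not counted and may be present. These matches describe letters in a window and say nothing about binding.

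Before the values, 2 arrays need a remark. The array labelled heart 2 had 99.3% of its spots well above background and a median processed signal of 949, against 47.3% to 55.2% and 24.3 to 37.8 on the other 5 arrays. Across probes its log2 signals correlated at 0.743 to 0.764 with the others, which among themselves gave 0.957 to 0.989. The array labelled tail 1 looked regular by these measures but was closest to heart 1 (0.989) and heart 3 (0.979), against 0.969 and 0.957 with tail 2 and tail 3. It thus ran against its label by this measure, and whether the label is right was not tested. Groups follow the labels, so every difference by label counts this array as tail and the other as heart, and differences are given both by label and without these arrays. Values given over heart 1, heart 3, tail 2 and tail 3 leave both out. Leaving out tail 1 rests on the measured outcome, so any p-value without it is too small by an unknown amount. All 9 fibroblast markers, among them the collagen genes Col1a1 and Col1a2 and the receptor gene Pdgfra, were well above background on every array.

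Levels are log2 processed signals relative to the array's 75th percentile, which is 0 on this scale. Clca3a1 had levels of 4.39, -3.92 and 5.17 on heart 1, the array labelled heart 2 and heart 3, against 5.45, -4.06 and -3.90 on the array labelled tail 1, tail 2 and tail 3. It was thus high on heart 1, heart 3 and the array labelled tail 1, and low on the other 3 arrays. The processed signals of Clca3a1 were 15108, 162 and 19134 on the heart arrays and 31416, 27.2 and 36.2 on the tail arrays in the same order. The probe was well above background on all arrays but tail 3.

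Clca3a2 had levels of 3.53, -3.95 and 4.29 on heart 1, the array labelled heart 2 and heart 3, against 4.57, -5.68 and -5.84 on the array labelled tail 1, tail 2 and tail 3. The same 3 arrays were high and the same 3 low as for Clca3a1. Its processed signals were 8297, 159 and 10411 on the heart arrays and 17120, 8.88 and 9.42 on the tail arrays, and it was not well above background on tail 2 and tail 3.

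**Figure D1:**
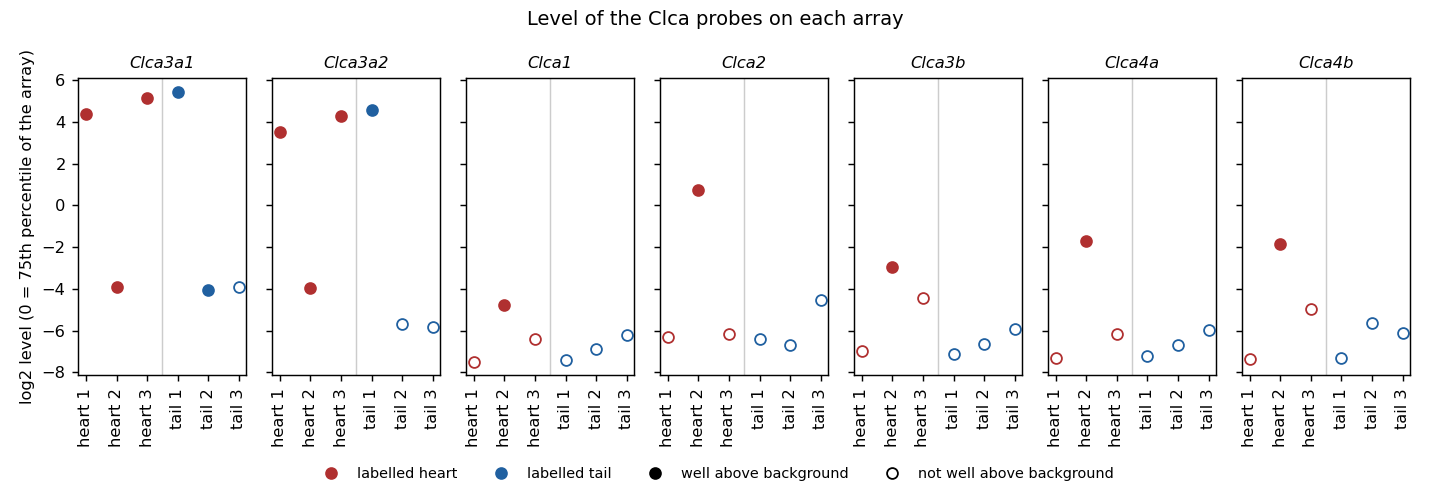
Level of each Clca probe (log2 processed signal minus the array's 75th percentile, y axis) on the 6 arrays (x axis, by label), 1 panel per gene. Filled points were well above background and open points were not. Clca3a1 and Clca3a2 lie between 3.53 and 5.45 on heart 1, heart 3 and the array labelled tail 1, while the other 5 probes are open on every array except the one labelled heart 2.

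By label, Clca3a1 averaged 1.88 ± 5.04 in heart and -0.84 ± 5.45 in tail cultures (SD, n = 3 each), a difference of 2.72. Clca3a2 averaged 1.29 ± 4.55 in heart and -2.32 ± 5.97 in tail cultures (SD, n = 3 each), a difference of 3.61. For both genes the groups overlapped and the difference was smaller than the spread within either group. Over the features tested by label, 2.19% had heart arrays that all lay above the tail arrays.

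Without the array labelled heart 2, Clca3a1 averaged 4.78 ± 0.55 in heart (n = 2) and -0.84 ± 5.45 in tail cultures (n = 3), and the groups still overlapped. Clca3a2 averaged 3.91 ± 0.54 in heart and -2.32 ± 5.97 in tail cultures on the same arrays, again with overlap. The remaining spread lay on the tail side, where the array labelled tail 1 was 1.06 above heart 1 for Clca3a1 and 1.04 above it for Clca3a2.

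With the arrays labelled heart 2 and tail 1 both left out, Clca3a1 averaged 4.78 ± 0.55 in heart and -3.98 ± 0.12 in tail cultures (SD, n = 2 each). The difference of 8.76 corresponds to 434-fold, measured against a tail signal that was well above background on 1 of the 2 arrays. Clca3a2 averaged 3.91 ± 0.54 in heart and -5.76 ± 0.11 in tail cultures (n = 2 each). Since neither tail array measured it well above background, the fold is given as an approximate bound, 305-fold or more. It takes, on each tail array, the higher of the probe's own level and the lowest level among probes well above background. That lowest level is not a strict limit. On tail 3 it was -4.03, and Clca3a1 at -3.90 was not well above background there. Of the 4 genes these 2 had groups that did not overlap, with heart higher, as did 25.9% of the features tested on these arrays. The genes were chosen on this contrast, so nothing is read from that count.

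The authors' deposited table lists a single Clca probe, that of Clca3a2. Its log2 fold change of heart over tail in the authors' deposited table is 9.43, a 692-fold ratio, the third of 261 values higher in heart. How that value was normalized and from which arrays is not given.

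Clca3a1 and Clca3a2 moved by like amounts among the 3 arrays where they were high, and by unequal amounts towards the array labelled heart 2. Heart 3 lay above heart 1 by 0.77 for Clca3a1 and by 0.76 for Clca3a2. The array labelled tail 1 lay above heart 3 by 0.28 for each gene. Both probes were also well above background on the array labelled heart 2. Heart 1 lay above that array by 8.31 for Clca3a1 and 7.48 for Clca3a2, and heart 3 by 9.09 and 8.24. On the low arrays the genes parted too. On the array labelled heart 2 Clca3a1 differed from tail 2 by 0.14 and from tail 3 by -0.02, while Clca3a2 was higher by 1.73 and 1.89, against tail signals that were not well above background. The letters of the 2 probes are not used here, so how far either could bind the transcript of the other gene was not tested. On heart 1, heart 3 and the array labelled tail 1 the probe of Clca3b, the next gene in the cluster, was not well above background.

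Clca1, the goblet cell member, had levels of -7.50, -4.78 and -6.39 on heart 1, the array labelled heart 2 and heart 3, against -7.42, -6.90 and -6.21 on the array labelled tail 1, tail 2 and tail 3. It was well above background only on the array labelled heart 2. Clca2 had levels of -6.31, 0.73 and -6.19 on the heart arrays and -6.42, -6.68 and -4.56 on the tail arrays in the same order. Its signal of 4082 on the array labelled heart 2 stood against 7.30 to 9.08 on the other heart arrays and 4.46 to 23.0 on the tail arrays. Outside that array neither gene was well above background in either tissue, and no fold is given.

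Clca3b, Clca4a and Clca4b behaved like Clca1 and Clca2. Over these 5 genes and the 5 arrays other than the one labelled heart 2, signals lay between 3.98 and 24.8 in heart and between 3.82 and 23.0 in tail cultures, and 0 of 25 values were well above background. On the array labelled heart 2 their signals lay between 89.2 and 4082, all well above background as were nearly all spots of that array. Of the 4 genes chosen, 2 (Clca3a1 and Clca3a2) passed the filter, which asks that every array of 1 group, heart or tail, lie well above background, both with 6 arrays and with 4. They passed it through the heart arrays, where they were high.

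Over the 6 arrays 42 features followed Clca3a1 more closely than Clca3a2 did, and without the array labelled heart 2 there were 9. Likeness was the Pearson correlation of levels with Clca3a1 over the 6 arrays, compared over 13113 tested features with a gene symbol. The arrays fell into high and low ones for Clca3a1, so r mainly records which arrays were high, and it is given as a description. The 5 most alike were the retinoic acid receptor gene Rarb (r = 0.9997), the glutamate receptor gene Gria4 (0.9991), Smtnl2 (0.9991), the galactosyltransferase gene B3galt1 (0.9991) and the Wnt antagonist gene Frzb (0.9990). Rarb, for example, had 1.11, -2.84 and 1.57 on heart 1, the array labelled heart 2 and heart 3, and 1.62, -2.90 and -2.68 on the array labelled tail 1, tail 2 and tail 3. Gria4 on tail 2 and tail 3 (-4.94 and -5.02), and Smtnl2 on tail 3, lay below the lowest level well above background of the array. Clca3a2 came in place 43 (r = 0.992), with tail 2 and tail 3 values that were also not well above background. Without the array labelled heart 2 it came in place 10 (r = 0.9997), ahead of these 5 genes, which took places 12 to 42. In all, 53 features had r above 0.99, 317 above 0.95 and 178 below -0.95.

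**Figure D2:**
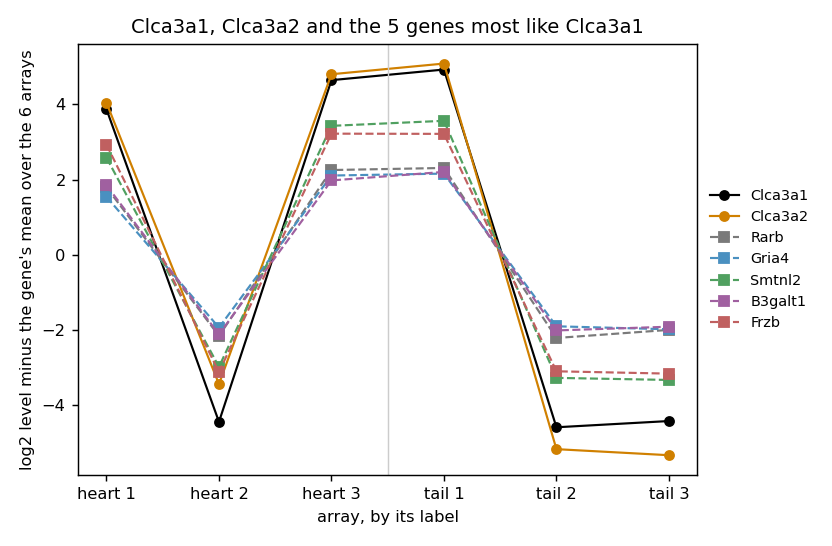
Level of each gene minus its own mean over the 6 arrays (log2, y axis) on each array by label (x axis), for Clca3a1 and Clca3a2 (solid lines) and the 5 genes with the highest correlation with Clca3a1 (dashed lines). All 7 lines are high on heart 1, heart 3 and the array labelled tail 1, and Clca3a2 departs from Clca3a1 on the 3 low arrays.

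At the genes beside the cluster the arrays lay closer together than at Clca3a1 and Clca3a2. Both were chosen because they stood among the largest differences, so nothing is read from that contrast. Over the 5 arrays other than the one labelled heart 2, levels spanned 9.51 for Clca3a1 and 10.42 for Clca3a2, and 0.07 to 2.14 for the 6 nearest neighbours. On the side of Clca3a1 the 3 nearest protein-coding genes with a probe are Sh3glb1, which encodes an endophilin, Selenof, a selenoprotein gene, and Hs2st1, a heparan sulfate sulfotransferase gene. Sh3glb1 had 3.63, 1.78 and 3.58 on heart 1, the array labelled heart 2 and heart 3, and 3.58, 3.57 and 3.64 on the array labelled tail 1, tail 2 and tail 3. Without the arrays labelled heart 2 and tail 1, the heart minus tail differences of these 3 genes were 0.00, -0.20 and 0.18 (limma adjusted p = 0.999, 0.449 and 0.668), and by label -0.60, -0.74 and -0.21. On the side of Clca2 they are Odf2l, which was not tested, the collagen gene Col24a1 (-1.04, adjusted p = 0.124, and -0.21 by label) and Znhit6, which encodes a zinc finger protein. Znhit6 was lower in heart (-1.81, SE 0.18, adjusted p = 0.00624), but had an adjusted p of 0.0514 when tail 2 was left out as well. With heart 3 left out instead, heart 1 was the only heart array and the difference of Col24a1 was -1.45. Odf2l then entered the test through heart 1 alone (-3.67), with a difference of 1.095. Its levels on tail 2 and tail 3 (-4.87 and -4.67) lay below the lowest level well above background on those arrays. By label the difference of Znhit6 was -1.15 (adjusted p = 0.725), and 0 of the tested neighbours passed.

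**Figure D3:**
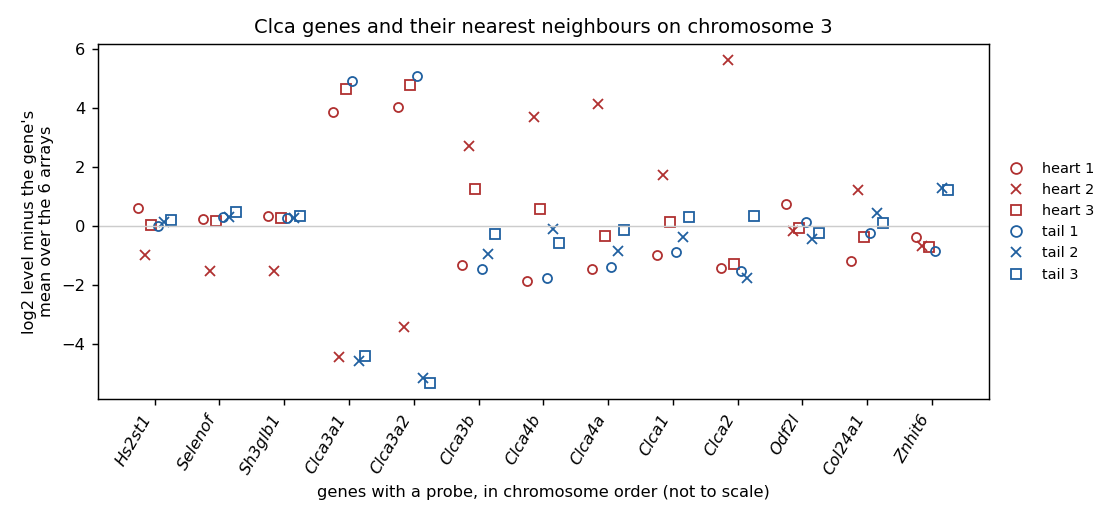
Level minus each gene's own mean over the 6 arrays (log2, y axis) for the Clca genes with a probe and the 3 nearest protein-coding genes on each side, in chromosome order (x axis, not to scale). Colours and symbols give the array by label. The wide separation of heart 1, heart 3 and the array labelled tail 1 from the other arrays is seen at Clca3a1 and Clca3a2, and the spread of the other Clca probes comes mostly from the array labelled heart 2.

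Other chloride channel genes were compared in a list of 43 outside the 4 chosen genes, of which 40 had a probe and 22 were tested. By label, limma called 0 of these 22 and 0 of 20195 features overall (0%). At an unadjusted p under 0.05 there were 1 and 465. The list's median difference was -0.47, beside -0.35 over all features tested. Without the arrays labelled heart 2 and tail 1, 3 rose and 4 fell in heart, while 14.3% of all 20567 features passed in either direction, 7.75% higher and 6.54% lower. The median was then -0.12 for the list and -0.06 for all features. The list was chosen with earlier results known, and these counts are not evidence that it stands apart.

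Those that rose were all subunits of the volume-regulated anion channel, in which Lrrc8a is the obligatory subunit and the other LRRC8 proteins are its partners. Lrrc8c had 1.08 and 0.96 on heart 1 and heart 3, against -0.96 and -0.82 on tail 2 and tail 3 (difference 1.91, SE 0.15, limma adjusted p = 0.00355). Lrrc8b rose by 1.65 (SE 0.14, adjusted p = 0.00447) and Lrrc8d by 1.11 (SE 0.14, adjusted p = 0.0123). Lrrc8e fell by 1.19 on the log2 scale (SE 0.14, adjusted p = 0.00983), and Lrrc8a differed by 0.38 (adjusted p = 0.18). The array labelled tail 1 had Lrrc8c at 1.12 and Lrrc8e at 0.09, and the array labelled heart 2 had them at -2.05 and -0.52. By label the differences were 0.22 for Lrrc8c and -0.998 for Lrrc8e (adjusted p = 0.911 and 0.725). Those of Lrrc8b, Lrrc8d and Lrrc8a by label were 0.82, 0.10 and -0.58, none of which passed.

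Among the calcium-activated chloride channels and their relatives, Ano1, the channel that human CLCA1 acts on, fell by 2.35 on the log2 scale in heart (SE 0.37, adjusted p = 0.0221). It had -3.81 and -4.80 on heart 1 and heart 3, where 1 of the 2 arrays measured it well above background, against -2.11 and -1.80 on tail 2 and tail 3. With heart 3, whose signal was not well above background, set to the lowest level that was so on that array, the difference was -2.04. By label it was -0.70 (adjusted p = 0.743). Ano6, Ano8 and Ano10 did not pass (-0.51, -0.52 and -0.60). Clcn2, a chloride channel opened by hyperpolarization, fell by 1.09 (adjusted p = 0.0149), and the other 7 tested CLC genes did not pass. Ttyh3, of the tweety family, fell by 1.35 (adjusted p = 0.0418), and both tested CLIC genes, Clic1 and Clic4, did not pass. By label the differences of Clcn2 and Ttyh3 were -0.79 and -1.27 (adjusted p = 0.725 for both). Of the 7 calls only that of Lrrc8c held without tail 2 (adjusted p = 0.0382), and those of Lrrc8c (0.03) and Lrrc8b (0.0457) held without tail 3.

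**Figure D4:**
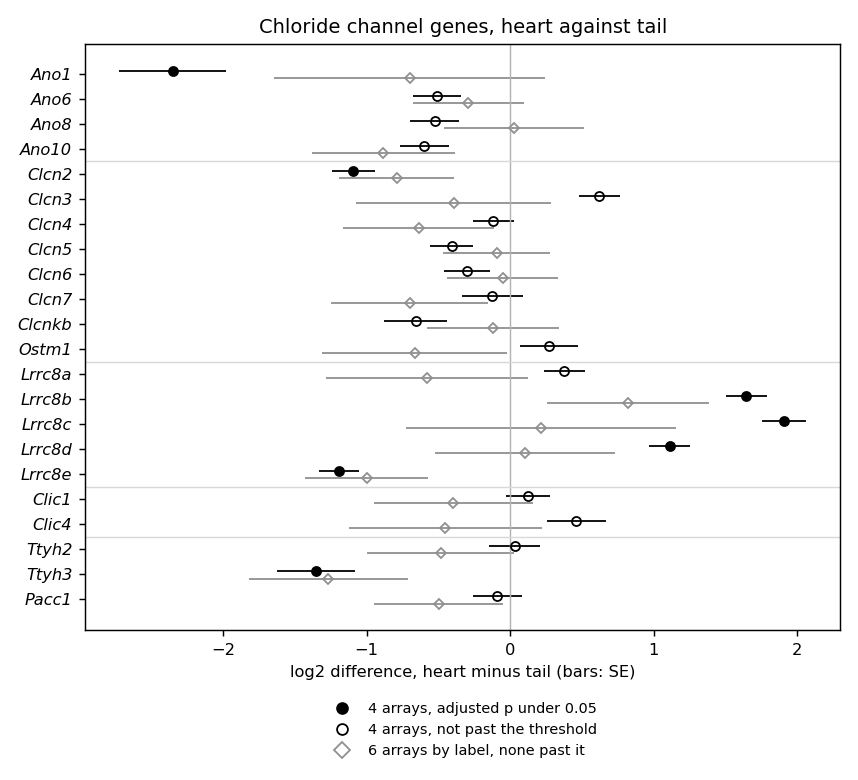
Heart minus tail difference (log2, x axis) of the 22 tested chloride channel genes (y axis), with the SE as bars. Circles are heart 1 and 3 against tail 2 and 3, filled where the limma adjusted p was under 0.05, and diamonds are all 6 arrays by label, where none passed. Filled circles stand at Lrrc8b, Lrrc8c and Lrrc8d on the higher side and at Ano1, Clcn2, Lrrc8e and Ttyh3 on the lower side.

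Since Clca3a1 is known from endothelium and Clca1 from goblet cells, markers of these and other cells were read on the same arrays. The summed linear level of 8 blood endothelial markers was 3.91, 3.28 and 5.52 on heart 1, the array labelled heart 2 and heart 3, against 4.25, 1.06 and 1.02 on the array labelled tail 1, tail 2 and tail 3 (1 is the array's 75th percentile). All 8 were well above background on each heart array and on the array labelled tail 1, and 4 of 8 on tail 2 and tail 3, where Tie1, Cldn5, Robo4 and Emcn were not. The 5 lymphatic endothelial markers with a probe summed to 0.34, 1.19 and 0.23 on the heart arrays and to 0.21, 0.05 and 0.07 on the tail arrays in the same order. These lists were thus higher on the arrays where Clca3a1 and Clca3a2 were high than on tail 2 and tail 3. Both genes were low on the array labelled heart 2, but there the lymphatic sum was the highest and the blood sum above tail 2 and tail 3. Taken singly, all 8 blood markers were higher on heart 1 and heart 3 than on tail 2 and tail 3. So were 3 of the 5 lymphatic ones (Lyve1, Flt4 and Mmrn1), and 25.9% of all features tested on these arrays. The part of these lists in the Clca levels was not tested.

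Apart from the array labelled heart 2, the lymphatic markers Flt4 and Reln were well above background on no array and Prox1 on heart 3 alone, while Lyve1 was so on heart 1, heart 3 and the array labelled tail 1. The 7 goblet and secretory markers with a probe summed to 0.28 and 0.31 on heart 1 and heart 3 and to 0.27 to 0.30 on the tail arrays. Of these Agr2, Tff3, Fcgbp and Foxa3 were not well above background on any of these 5 arrays, and neither was Clca1. Muc5ac was so on all 5, Spdef on all but tail 3, and Muc5b on heart 1 and the array labelled tail 1. The 7 squamous epithelial markers summed to between 5.41 and 6.36 on these 5 arrays, mostly from Trp63, whose log2 level was 2.23 to 2.45. The other squamous markers had log2 levels of -1.14 or lower on these arrays, and Dsg3 was well above background on none of them. Krt5, Krt10, Trp63 and Sfn were so on all of them. Krt14 was so on heart 1, the array labelled tail 1 and tail 2, and Ivl on heart 3 alone. The 6 cardiomyocyte markers summed to 3.77 and 2.27 on heart 1 and heart 3 and to 4.32, 1.30 and 1.91 on the array labelled tail 1, tail 2 and tail 3. Tnnt2 made up most of the sums on heart 1, heart 3 and the array labelled tail 1. Of the 6, 1 (Tnnt2) was higher on heart 1 and heart 3 than on tail 2 and tail 3, and 2 (Actc1 and Myl2) were lower. Of all features tested on these arrays, 25.9% were higher and 36.4% lower in this way. Actc1 had -7.18 and -6.06 on heart 1 and heart 3, where it was not well above background, against -0.12 and 0.46 on tail 2 and tail 3.

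Some macrophage and mesothelial markers were also higher on heart 1, heart 3 and the array labelled tail 1 than on tail 2 and tail 3. Their sums do not show it because 1 gene dominates the sum on tail 2 and tail 3. On the array labelled heart 2, where Clca3a1 and Clca3a2 were low, these markers did not all follow. Of all arrays, Adgre1 was lowest there (-0.83) and Msln highest (-1.12). The 5 macrophage markers summed to 25.3 and 48.4 on heart 1 and heart 3 and to 37.1, 31.4 and 19.6 on the array labelled tail 1, tail 2 and tail 3, mostly from Csf1r. Of the 5, 4 (Adgre1, Aif1, Cx3cr1 and Ptprc) were higher on heart 1 and heart 3 than on tail 2 and tail 3. The share over all features tested on these arrays was 25.9% higher and 36.4% lower. Aif1 had 1.30 and 2.35 on heart 1 and heart 3, against 2.10, -2.24 and -3.26 on the array labelled tail 1, tail 2 and tail 3. Cx3cr1, a chemokine receptor gene, had 0.13 and 1.70 on heart 1 and heart 3, against 1.37, -2.22 and -3.04 on the tail arrays in the same order.

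The 6 mesothelial markers summed to 0.86 and 0.61 on heart 1 and heart 3 and to 0.94, 2.46 and 2.54 on the array labelled tail 1, tail 2 and tail 3, and the keratin gene Krt19 made the sums of tail 2 and tail 3 the higher ones. Of the 6, 4 (Msln, Upk3b, Lrrn4 and Wt1) were higher on heart 1 and heart 3 than on tail 2 and tail 3, and Krt19 was lower. The share over all features tested on these arrays was 25.9% higher and 36.4% lower. Lrrn4 was well above background only on heart 1 and the array labelled tail 1. Wt1, a transcription factor gene, had -1.35 and -1.99 on heart 1 and heart 3, against -1.25, -6.84 and -6.21 on the array labelled tail 1, tail 2 and tail 3, and was not well above background on tail 2 and tail 3.

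The fibroblast markers themselves were not level. Of the 9, 5 (Col3a1, Pdgfra, Ddr2, Dcn and Lum) were higher on heart 1 and heart 3 than on tail 2 and tail 3, and 3 (Col1a1, Thy1 and Vim) were lower. Lum, which encodes the proteoglycan lumican, had 5.68 and 6.14 on heart 1 and heart 3, against 6.21, 3.27 and 2.65 on the array labelled tail 1, tail 2 and tail 3. Thy1 had 5.29 and 5.45 on heart 1 and heart 3, against 5.06, 7.32 and 7.18 on the tail arrays in the same order. Over all features tested on these 4 arrays, 25.9% had both heart arrays higher and 36.4% both lower. The part of these markers in the Clca levels was not tested.

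**Figure D5:**
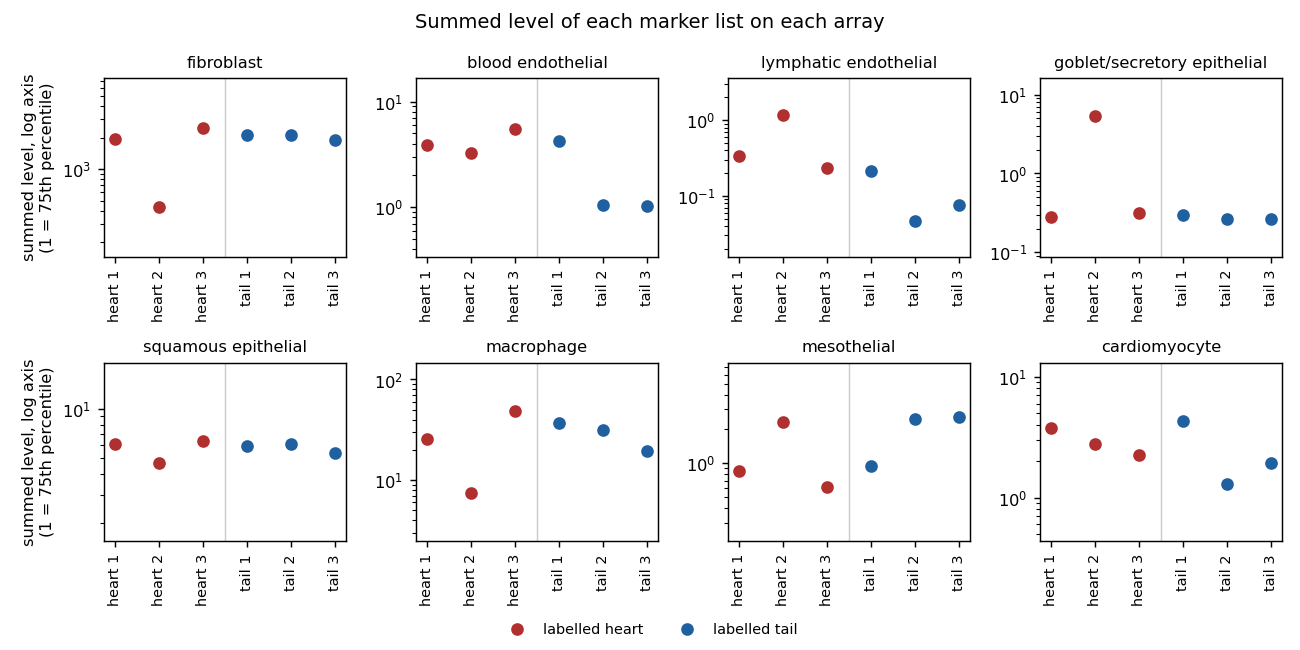
Summed linear level of each marker list (y axis, log scale, 1 is the array's 75th percentile) on each array by label (x axis), 1 panel per list. The blood and lymphatic endothelial lists are lowest on tail 2 and tail 3, and the fibroblast sum, which the brightest genes dominate, lies between 1918 and 2445 on all arrays but the one labelled heart 2 (439.9).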

How the data were processed

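The deposited array files hold 1-colour spot intensities from Agilent Feature Extraction 11.0.1.1, which subtracted background and corrected spatial trends without scaling arrays to each other, per the file headers. Flags of another kind (well above background, non-uniform or population outlier, saturated) came from the same files, per the file headers. A table deposited by the authors holds 433 probes, each with a fold ratio of heart to tail and its log2.

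Outlier spots were left out, log2 processed signals were set relative to the 75th percentile of non-control probes, and spots of a probe were averaged. The brightest probe stood for a gene. RefSeq accessions named 27235 probes (GRCm38.p6 gene table), and the files' design is on mm9. The promoter window was searched for 3 motifs, and those of the other Clca genes are not reported here. Heart and tail were compared with limma 3.58.1 in R 4.3.3 (two-sided, Benjamini-Hochberg adjusted p under 0.05). The code was also run on simulated data with equal noise on every array. None of those arrays stood apart or ran against its label, so that run says nothing about such arrays. Python 3.11.15 with pandas 2.3.3 and matplotlib 3.10.9 was also used. The number of arrays limits precision, and all lay on 1 slide in 2 rows.

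The members and gene lists were chosen with earlier results of these data known. Named were all Clca probes, up to 4 called genes per chloride channel list, the 5 genes most like Clca3a1, the 3 nearest neighbours on each side and the markers. Uncalled genes of lists that hold calls (Ano6, Ano8, Ano10 and Lrrc8a) were named with their values known. Alternatives covered scaling, background, filter, probe choice, blocks, weights and left-out arrays.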

Additional observations from a re-analysis of the deposited data

How the results depend on the processing

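By label 0 features passed, and 0 still passed under quantile, median and cyclic loess normalization, normexp, without any filter, with all arrays required above background, with a gene's mean or dimmest probe, the slide row as a block, and an intensity trend. With the replicate number as a block 121 passed (0 chloride channel genes), with array weights 5660 (10 chloride channel genes; the weights did not fully converge), and without heart 1, 239. Same-numbered arrays did not all deviate together (r = 0.381, 0.0521 and -0.244 for numbers 1, 2 and 3), and not every array correlated best with its own number. The highest r of any heart and tail pair was 0.405, for heart 2 and tail 3. Leaving out 1 of 6 arrays gave 0 to 239 features and 0 chloride channel genes. Without the arrays labelled heart 2 and tail 1 there were 2940 features and 7 chloride channel genes, and leaving out 1 more (heart 1, heart 3, tail 2, tail 3 in turn) gave 4063, 3413, 1821 and 1493 features and 7, 8, 1 and 2 chloride channel genes; the lone array of a group was then assumed to vary like the other group. The cause was not tested.

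For the Clca differences only scaling, background and left-out arrays were varied. Clca3a1 and Clca3a2 were chosen because they stood among the largest differences on these arrays, so a stable sign is no independent support. The difference of Clca3a1 stayed positive, 1.50 to 3.08 by label over the scalings and 1.07 to 5.86 leaving out 1 array. It was 8.76 on 4 arrays and 9.15, 8.38, 8.68 and 8.85 leaving out 1 of these in the same order. That of Clca3a2 was likewise positive, 1.81 to 3.82, 1.84 to 7.05, 9.67, and 10.05, 9.29, 9.75 and 9.59, the 4-array values being measured against tail signals not well above background. Clca1 and Clca2 had no stable sign. Clca1 was 0.62 by label, -0.65 under cyclic loess, -0.10 to 1.26 leaving out 1 array and -0.94 to 0.17 leaving out 1 more of 4 (-0.94 without heart 3, -0.73 without tail 2). Clca2 was 1.96 by label, -0.37 to 3.16 leaving out 1 array and -1.69 to 0.43 leaving out 1 more of 4, both near background.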
